A study of Homo sapiens with 18 samples.

Results

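The 43 genes described here encode the replication and mitosis machinery of dividing cells. They were found as the rows of a table of 19849 genes whose symbol equals one of 43 names, and all 43 names had exactly 1 row. By textbook role, 21 were taken as S-phase genes, meaning genes for entry into DNA synthesis, for licensing and firing replication origins, and for the replication fork and its nucleotides. The other 22 were taken as mitotic genes, meaning genes for the mitotic cyclins and kinases, the spindle checkpoint, the kinetochore and cell division. The boundary between the classes is not sharp, since MKI67, TOP2A, CCNA2, FOXM1, MYBL2, CDC25A, UHRF1, RRM2 and E2F8 are read in both S phase and G2.

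The data are 18 Affymetrix U133 Plus 2.0 arrays, and they cover 3 human non-small cell lung cancer lines, namely A549, HCC827 and NCI-H358. Each line was sampled as untreated parental cells and as mesenchymal derivatives made by epithelial-mesenchymal transition (EMT), with 3 arrays per group. EMT was induced with TGFβ at 2 ng/ml for 3 weeks, and TGFβ was withdrawn on the day before lysis. The paper's methods also give ranges of weeks, longer for HCC827 and NCI-H358 than for A549, so the exposure may differ between lines. All groups grew in RPMI1640 medium with serum and glutamine, each line is 1 established line, and the mesenchymal cells are the bulk culture after TGFβ rather than clones. Values are RMA log2 levels of 1 probe set per gene, so a difference of 1 is a 2-fold change, and each fold change compares a gene with itself on other arrays. Levels of different genes are set side by side only to show how low some marker, housekeeping and cell cycle probe sets lie.

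Cells copy their DNA in S phase and divide it in mitosis, and the genes for each step are transcribed in waves. At the start of S phase the E2F factors, released from RB family proteins, drive genes such as the MCM helicase subunits. Later, MYBL2 and FOXM1 act with the MuvB complex on promoters that hold a cell cycle homology region (CHR) and drive the genes of mitosis, and in resting cells the DREAM complex represses both sets. TGFβ is known to arrest many normal epithelial cells in G1, an effect that carcinoma cells often lose. In bulk RNA, fewer cells in a phase and less RNA per cell cannot be told apart.

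The labelled states were borne out by their markers. The log2 fold change of the epithelial adhesion gene CDH1, mesenchymal minus parental, was -5.81 for A549, -2.95 for HCC827 and -3.94 for NCI-H358, all called, and the intermediate filament gene VIM rose by 0.79, 2.03 and 2.31. The VIM level stayed low, with mesenchymal means of 6.37, 5.57 and 5.92, within or below the array medians of 6.31 to 6.47. Of 9 epithelial markers 5, 8 and 9 were lower in the mesenchymal cells, and 8 of 8 mesenchymal markers were higher in each line. The 5 leukocyte markers had median levels between 4.95 and 5.49 in the 6 groups and the 4 endothelial markers between 4.35 and 5.07, against array medians of 6.31 to 6.47 over all genes. The highest leukocyte marker stood at the 44.3 to 63.1 percentile of all genes across the groups. For any 2 arrays of a group, log2 values differed with an SD across genes of 0.163 to 0.282. No pair of arrays was identical. Nothing in the labels ties arrays to separate cultures, so the p-values measure the spread between these samples, although the paper calls the arrays of a group biological replicates that were prepared together.

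Parental arrays of HCC827 and NCI-H358 were uneven in the S-phase genes. HCC827 parental replicate 1 was the lowest of its 3 arrays in 21 of 21 S-phase genes, by a median of 0.46 below the mean of the other 2 arrays, and in 13 of 22 mitotic genes, by a median of 0.10. NCI-H358 parental replicate 3 was the lowest in 20 of 21 S-phase genes, by a median of 0.23, and in 9 of 22 mitotic genes, by a median of 0.03. In A549, no parental array was lowest in more than 11 of the 21 S-phase genes. Member counts, class and role medians and comparisons of parental lines that use these 2 arrays are given with and without them. In the mitotic genes, HCC827 mesenchymal replicate 3 was the lowest in 16 of 22, by a median of 0.11 below the mean of the other 2 arrays. A549 parental replicate 1 was the lowest in 14 of 22, by a median of 0.07.

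**Figure D1:**
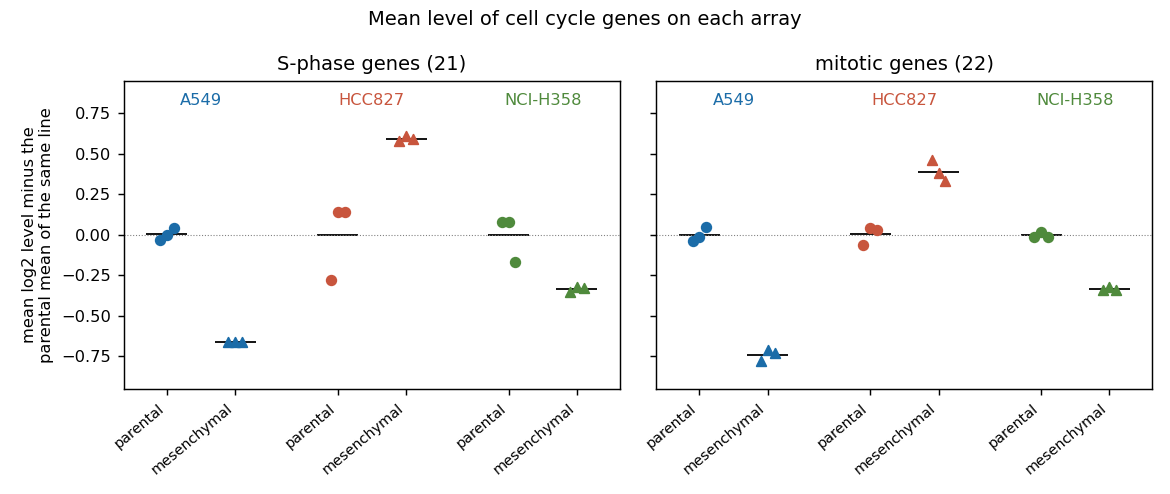
Mean RMA log2 level of the 21 S-phase genes (left) and the 22 mitotic genes (right) on each of 18 arrays, minus the parental mean of the same line. Circles are parental and triangles mesenchymal arrays, and horizontal lines are means of 3 arrays. Both classes lie lower in mesenchymal A549 and NCI-H358 and higher in mesenchymal HCC827, and HCC827 parental replicate 1 (-0.28) and NCI-H358 parental replicate 3 (-0.17) lie apart in the S-phase genes.

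The same cell cycle genes moved in opposite directions in different lines. In A549, 40 of 43 genes were lower in the mesenchymal cells and 0 were higher (limma, Benjamini-Hochberg adjusted p below 0.05), where 26.8% of all 19849 genes were lower and 16.6% higher. At an unadjusted limma p under 0.05, 1 member was higher in A549, CCNE1, and by a per-gene Student's t-test, run as an alternative, also 1. In HCC827, 29 of 43 were higher, against 20.8% of all genes, and only CDC25C was lower, against 25%. In NCI-H358, 28 of 43 were lower, against 19.8% of all genes, and 3 were higher (CCNE1, TYMS and CENPF), against 21.5%. Median log2 fold changes of the 43 genes were -0.76 (A549), 0.44 (HCC827) and -0.38 (NCI-H358), beside -0.02, 0.01 and 0.02 for all genes. Without both uneven parental arrays the HCC827 and NCI-H358 medians were 0.37 and -0.42. RNA levels of these genes do not measure growth. The paper reports, from cell density over time, that TGFβ-treated cells were slower to grow than the parental cells. Without HCC827 parental replicate 1, 25 genes were higher in HCC827 and 0 lower. Calls lost in HCC827 were CCNE1, MCM2, CDC25C, AURKA and AURKB, of which CCNE1 and MCM2 were called again when NCI-H358 parental replicate 3 was left out as well. Without NCI-H358 parental replicate 3, 32 genes were lower in NCI-H358 and 2 higher, with MCM2, MCM5, FOXM1 and MYBL2 gained as lower and CCNE1 lost.

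The changes were small per gene. Above 2-fold, A549 had 5 of the 43 genes (CDC25A, E2F2, E2F8, CCNA2 and BUB1, all lower), beside 8.02% of all genes in either direction. HCC827 had 7 (CCNE2, MCM3, MCM5, TYMS, UHRF1, BIRC5 and CENPF, all higher), beside 11.5% of all genes. Without HCC827 parental replicate 1, CCNE2 (0.86), TYMS (0.99) and UHRF1 (0.96) stood below a log2 fold change of 1 in HCC827. NCI-H358 had 0 beside 9.38%. At the thresholds the study used, a fold above 5 with an adjusted p below 1e-05, no member was called in any line by limma, while 1.9%, 2.95% and 2.17% of all genes were called in A549, HCC827 and NCI-H358. At an unadjusted limma p under 0.05 the members numbered 41, 34 and 35 in either direction, beside 49.4%, 50.6% and 46.6% of all genes. Few genes kept 1 direction in all 3 lines. With all arrays, CDC25C, the phosphatase that activates CDK1, was the one member called lower in each, and none was called higher in each. Without HCC827 parental replicate 1, CDC25C was not called in HCC827 (limma, adjusted p = 0.0509). With both uneven parental arrays left out, it was still not called there (adjusted p = 0.0537), and CCNE1 was called higher in all 3 lines. The most frequent pattern, in 15 genes, was lower in A549, higher in HCC827 and lower in NCI-H358. A further 10 genes were lower in A549 and NCI-H358 and not called in HCC827, among them CCNB1, CCNB2, CDK1 and TOP2A. Another 9 were lower in A549, higher in HCC827 and not called in NCI-H358, among them MKI67, BIRC5, FOXM1 and E2F1. With both uneven parental arrays left out, the most frequent pattern lost AURKA and AURKB and gained MCM2, MCM3, MCM5 and FOXM1. With 3 arrays against 3, an exact permutation test of 1 gene cannot go below a two-sided p of 0.1, so the calls come from the limma fit over all 18 arrays.

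**Figure D2:**
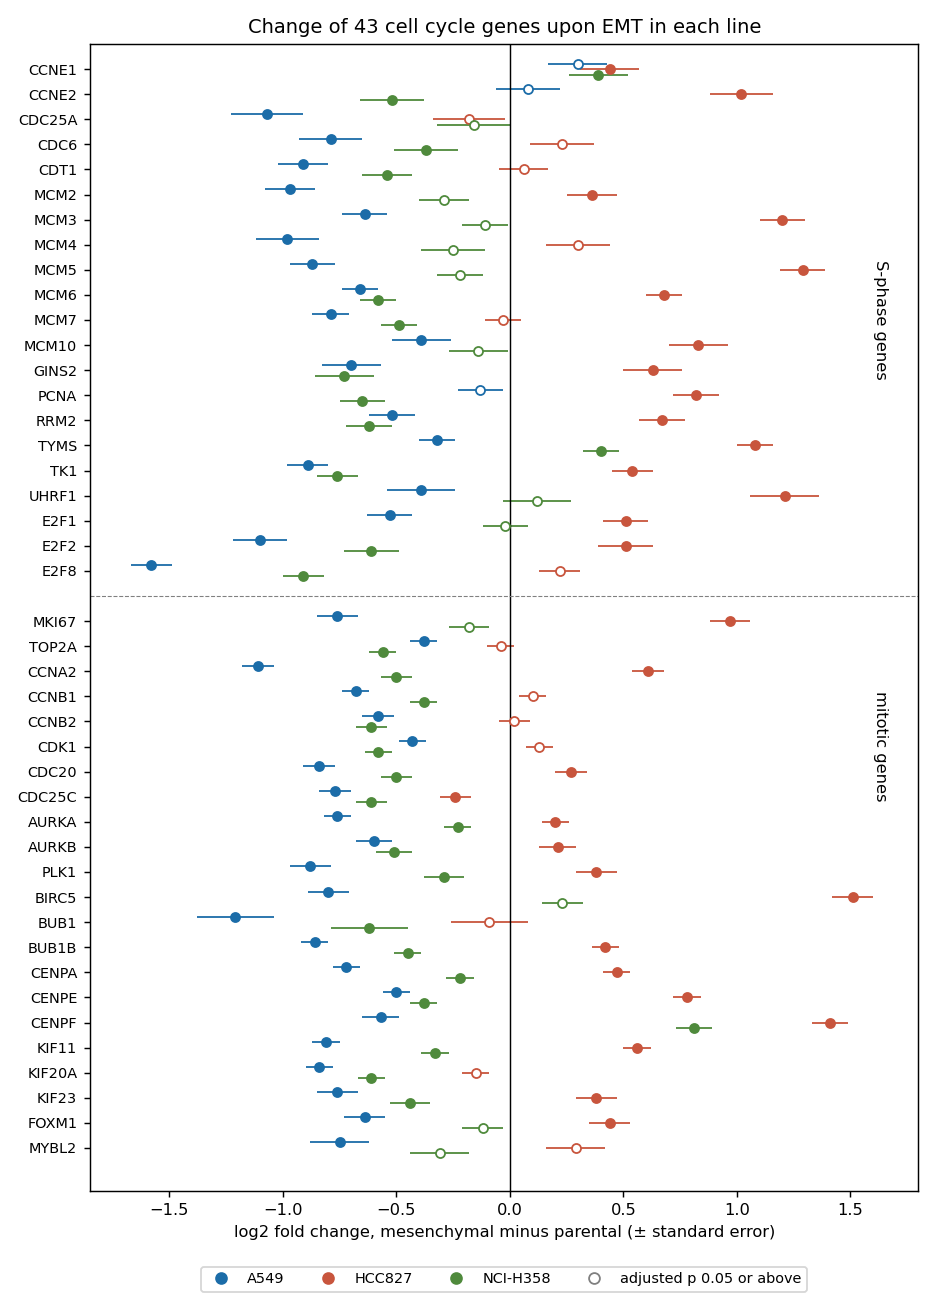
Log2 fold change of each of the 43 genes, mesenchymal minus parental, in A549 (blue), HCC827 (red) and NCI-H358 (green), with the standard error of the limma fit as bars. Open circles have an adjusted p of 0.05 or above. A549 points lie left of 0 for 41 genes and HCC827 points right of 0 for 37 genes, and NCI-H358 lies left of 0 for 38 genes.

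The S-phase and mitotic classes had medians of the same sign in each line, below 0 in A549 and NCI-H358 and above 0 in HCC827. In A549, 18 of 21 S-phase genes and 22 of 22 mitotic genes were lower, with medians of -0.70 and -0.76. In NCI-H358, 11 of 21 and 17 of 22 were lower, with medians of -0.37 and -0.41, and without replicate 3 of its parental arrays 13 and 19 were lower, with medians of -0.50 and -0.40. In HCC827, 15 of 21 S-phase genes and 14 of 22 mitotic genes were higher, with medians of 0.54 and 0.33. Without HCC827 parental replicate 1 these were 13 and 12, with medians of 0.44 and 0.27. The order of the class medians in NCI-H358 thus turned with that 1 array, and in HCC827 it did not. No test was made of the difference between classes, since the genes of a class share arrays and are not replicates.

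On the arrays, the class means separated the states fully in each line. The S-phase mean was 9.81, 9.84 and 9.88 on the parental A549 arrays and 9.18, 9.18 and 9.19 on the mesenchymal. In HCC827 it was 8.68, 9.09 and 9.09 against 9.54, 9.56 and 9.54, and in NCI-H358 it was 9.59, 9.58 and 9.33 against 9.15, 9.18 and 9.17. All 3 mesenchymal arrays lay below the parental arrays in A549 and NCI-H358 and above them in HCC827. The mitotic mean went from 10.16, 10.19 and 10.25 to 9.43, 9.49 and 9.47 in A549, from 9.54, 9.64 and 9.63 to 10.06, 9.98 and 9.93 in HCC827, and from 9.70, 9.74 and 9.70 to 9.37, 9.39 and 9.37 in NCI-H358. Within a group the mitotic mean varied by an SD of 0.07 or less, while the S-phase mean of parental HCC827 had an SD of 0.24 and that of parental NCI-H358 0.15.

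Grouped by role, the genes are described by counts and medians, and no difference between roles was tested. In HCC827, all 5 replication fork and nucleotide supply genes rose, with a median of 0.82. Of the 10 origin licensing and firing genes 6 rose, with a median of 0.50, and of 5 spindle checkpoint and kinetochore genes 4 rose, with a median of 0.47. The 6 mitotic cyclin, CDK and activator genes had a median of 0.11, with 2 higher, 1 lower and 3 not called. Without HCC827 parental replicate 1 the medians were 0.64 for the fork, 0.32 for the origin, 0.44 for the checkpoint and kinetochore and 0.11 for the cyclin, CDK and activator genes, so the order of the origin and kinetochore medians rested on that array, and 5 origin genes were called higher. Of the 4 mitotic kinase and passenger genes, 4 rose with that array and 2 without it. In A549, every role with 3 or more genes had all its genes lower, apart from the G1/S cyclins and phosphatase (1 of 3) and the fork and nucleotide genes (4 of 5). In NCI-H358, all 6 mitotic cyclin, CDK and activator genes were lower, with a median of -0.54, and 5 of 10 origin genes, with a median of -0.33. Without NCI-H358 parental replicate 3, 6 and 7 of these were lower, with medians of -0.53 and -0.44.

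The promoters of the 2 classes differ in their letters. The classes were set by textbook role, which the background above ties to E2F and CHR control, so this difference is not independent of the choice. RefSeq windows on GRCh38.p14, from 250 bases before to 50 bases after a gene start, were found for 36 of the 43 genes, 8 of them with several windows (no entry for AURKA, BIRC5, CCNE2, E2F8, FOXM1, MCM4 and MCM5). Motifs searched on both strands were the CHR (TTTGAA or TTCGAA), the CCAAT box (CCAAT), bound by NF-Y, and the E2F site (TTCCCGC as one form, with TTGGCGC as another form, TTGCCGC as the next form and TTCGCGC as the last). The CHR letters were in 13 of 19 mitotic genes (68.4%) and 1 of 17 S-phase genes (5.9%), beside 16.9% of 15018 genes of the table. E2F letters were in 15 of 17 S-phase genes (88.2%) and 4 of 19 mitotic genes (21.1%), beside 21.1% of all. CCAAT was in 70.6% of S-phase and 84.2% of mitotic genes, beside 42.0%. Words this short occur often by base composition alone, and a match is not a bound site.

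The promoters of 5 mitotic and 4 S-phase genes are shown to set the motifs of the 2 classes side by side. Among them, CENPF and TOP2A have their CHR matches, and CDC6 its E2F match, outside the printed run. Each run is the last 120 bases before the gene start on the gene's own strand, from RefSeq on GRCh38.p14, with every match to a CHR, CCAAT or E2F motif in capitals. The windows are chr15:59105026-59105145 (plus strand) for CCNB2, chr1:43358861-43358980 (plus) for CDC20, chr16:23678769-23678888 (plus) for PLK1, chr1:214603075-214603194 (plus) for CENPF, chr17:40417897-40418016 (minus) for TOP2A, chr6:52284743-52284862 (minus) for MCM3, chr20:33686386-33686505 (minus) for E2F1, chr2:135876444-135876563 (minus) for MCM6 and chr17:40287759-40287878 (plus) for CDC6.
CCNB2: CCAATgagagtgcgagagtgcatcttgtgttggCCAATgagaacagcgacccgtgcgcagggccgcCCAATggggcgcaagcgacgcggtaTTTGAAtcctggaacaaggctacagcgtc
CDC20: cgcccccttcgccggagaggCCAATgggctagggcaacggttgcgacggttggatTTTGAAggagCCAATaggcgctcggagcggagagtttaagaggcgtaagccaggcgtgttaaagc
PLK1: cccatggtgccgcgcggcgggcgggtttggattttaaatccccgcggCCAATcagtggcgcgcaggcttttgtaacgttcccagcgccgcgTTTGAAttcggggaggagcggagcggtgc
CENPF: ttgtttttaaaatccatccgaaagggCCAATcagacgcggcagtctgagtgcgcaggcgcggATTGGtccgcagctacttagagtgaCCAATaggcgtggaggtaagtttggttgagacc
TOP2A: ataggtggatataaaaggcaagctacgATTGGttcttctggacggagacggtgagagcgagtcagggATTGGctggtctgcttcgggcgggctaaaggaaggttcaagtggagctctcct
MCM3: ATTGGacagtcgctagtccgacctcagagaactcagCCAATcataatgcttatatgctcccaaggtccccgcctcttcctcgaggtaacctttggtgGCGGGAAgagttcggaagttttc
E2F1: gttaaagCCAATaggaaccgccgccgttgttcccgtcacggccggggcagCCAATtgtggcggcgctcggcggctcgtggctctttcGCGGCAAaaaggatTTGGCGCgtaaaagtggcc
MCM6: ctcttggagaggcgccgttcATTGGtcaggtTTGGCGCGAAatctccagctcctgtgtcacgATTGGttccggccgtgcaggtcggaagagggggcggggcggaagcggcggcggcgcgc
CDC6: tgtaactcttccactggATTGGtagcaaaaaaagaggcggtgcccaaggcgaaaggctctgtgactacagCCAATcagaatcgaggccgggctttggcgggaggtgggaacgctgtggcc
The CHR letters begin 29 bases before the start in CCNB2 and PLK1 and 65 bases before it in CDC20, with a CCAAT box further upstream in each. The runs of CENPF and TOP2A hold CCAAT boxes and no CHR letters, which occur elsewhere in their windows. The runs of MCM3, E2F1 and MCM6 hold E2F letters. That of CDC6 holds CCAAT boxes and none of the E2F words searched, its 1 match to them lying elsewhere in the window. Other forms of the E2F site were not searched. No S-phase run shown holds CHR letters, but the window of MCM6 does outside the run, as the 1 S-phase gene with a match. In MCM6 a pair of E2F words overlap by 4 bases, at 89 and 86 bases before the start.

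Of the genes that start S phase, CCNE1 had a change above 0 in each line, while CCNE2 had the sign of its class median in HCC827 and NCI-H358. CCNE1 and CCNE2 encode the cyclins that activate CDK2 at the G1/S boundary, and CDC25A encodes the phosphatase that removes the inhibitory phosphates of CDK2. CCNE1 levels in A549 were 9.44, 9.47 and 9.48 on the parental arrays and 9.80, 9.73 and 9.76 on the mesenchymal, in HCC827 7.72, 8.18 and 8.17 against 8.52, 8.49 and 8.39, and in NCI-H358 8.17, 8.13 and 7.60 against 8.39, 8.33 and 8.35. Mesenchymal arrays lay above all parental arrays in each line, with 1 low parental array in HCC827 and in NCI-H358. The log2 fold changes were 0.30 ± 0.13, adjusted p = 0.0731 (A549), 0.44 ± 0.13, adjusted p = 0.0103 (HCC827) and 0.39 ± 0.13, adjusted p = 0.0251 (NCI-H358). The calls moved with the low arrays, and the adjusted p was 0.0704 in HCC827 without its parental replicate 1 (log2 fold change 0.29) and 0.169 in NCI-H358 without its parental replicate 3 (0.20). In A549 it was 0.0334 without the HCC827 array and 0.0171 without the NCI-H358 array, which enter only through the shared spread. With both arrays left out, all 3 lines were called higher, at 0.30 (adjusted p = 0.000162) in A549, 0.29 (adjusted p = 0.000619) in HCC827 and 0.20 (adjusted p = 0.00984) in NCI-H358.

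CCNE2 stood at 8.17, 8.35 and 8.52 in parental and 8.53, 8.41 and 8.34 in mesenchymal A549, where the groups overlapped. HCC827 went from 8.61, 9.14 and 9.08 to 10.02, 10.05 and 9.84, and NCI-H358 from 10.23, 9.92 and 9.74 to 9.48, 9.48 and 9.38. The groups did not overlap in HCC827, where CCNE2 rose 2.03-fold (1.02 ± 0.14, adjusted p = 7.26e-06), nor in NCI-H358, where it fell (-0.52 ± 0.14, adjusted p = 0.00533). Without HCC827 parental replicate 1 the rise in HCC827 was 0.86. The change in NCI-H358 minus that in HCC827 was -1.54 ± 0.19 for CCNE2 (adjusted p = 6.74e-06), the lowest of the 43 genes and within 1 standard error of MCM5 (-1.51 ± 0.14). Without HCC827 parental replicate 1 MCM5 was the lowest (-1.39, against -1.38 for CCNE2). CDC25A read 6.23, 6.60 and 6.88 in parental and 5.36, 5.66 and 5.50 in mesenchymal A549, a fall (-1.07 ± 0.16, adjusted p = 3.8e-05) with no overlap. In HCC827 it read 5.83, 6.30 and 6.15 against 5.88, 6.11 and 5.76, and in NCI-H358 6.98, 6.84 and 6.55 against 6.65, 6.78 and 6.46, with overlapping groups in both and changes that were not called.

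The E2F genes fell in A549 and, in part, in NCI-H358. E2F1 and E2F2 encode activating members of the family, and E2F8 encodes an atypical repressor that E2F itself induces. E2F1 was 7.04, 6.86 and 6.87 against 6.25, 6.39 and 6.54 in A549, 6.26, 6.46 and 6.52 against 6.86, 7.02 and 6.90 in HCC827 and 6.67, 6.65 and 6.46 against 6.70, 6.42 and 6.60 in NCI-H358, parental first. It fell in A549 (-0.53 ± 0.10, adjusted p = 0.000251) and rose in HCC827 (0.51 ± 0.10, adjusted p = 0.00029), and the NCI-H358 groups overlapped. E2F2 was 7.98, 7.92 and 7.53 against 6.79, 6.67 and 6.67 in A549, 6.35, 6.48 and 6.45 against 6.86, 6.83 and 7.13 in HCC827 and 6.85, 6.88 and 6.71 against 5.97, 6.33 and 6.31 in NCI-H358. No line overlapped, and E2F2 fell in A549 (-1.10 ± 0.12, adjusted p = 8.27e-07) and NCI-H358 (-0.61 ± 0.12, adjusted p = 0.000424) and rose in HCC827 (0.51 ± 0.12, adjusted p = 0.00167).

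E2F8 had the lowest fold change of the 43 genes in both A549 and NCI-H358. Its levels were 8.70, 8.74 and 8.94 on parental and 7.18, 7.29 and 7.18 on mesenchymal A549 arrays, and 8.04, 8.19 and 7.96 against 7.12, 7.20 and 7.16 in NCI-H358. Mesenchymal arrays of both lines were far below the parental ones, by 2.99-fold in A549 (-1.58 ± 0.09, adjusted p = 1.59e-10) and 1.88-fold in NCI-H358 (-0.91 ± 0.09, adjusted p = 1.71e-07). In HCC827 the levels were 8.60, 8.86 and 8.74 against 9.01, 9.02 and 8.82, with overlap, and the difference missed the threshold (0.22 ± 0.09, adjusted p = 0.0503).

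The origin genes include the licensing factors CDC6 and CDT1, which load the MCM2 to MCM7 helicase onto DNA, and MCM10 and GINS2, which act when the helicase starts. CDC6 was 9.45, 9.47 and 9.61 in parental and 8.72, 8.70 and 8.74 in mesenchymal A549, and fell (-0.79 ± 0.14, adjusted p = 0.000198). In HCC827 it was 8.20, 8.86 and 8.90 against 8.88, 8.91 and 8.86, where the parental spread covered the mesenchymal values apart from 1 array. In NCI-H358, at 8.69, 8.74 and 8.32 against 8.24, 8.19 and 8.22, the fall was close to the threshold (-0.37 ± 0.14, adjusted p = 0.0458) and was lost on leaving out any 1 of 14 of the 18 arrays. Without both uneven parental arrays, CDC6 was called lower in NCI-H358 (-0.50, adjusted p = 6.81e-06). MCM2 was 10.69, 10.67 and 10.62 against 9.73, 9.62 and 9.71 in A549 and 9.92, 10.43 and 10.46 against 10.67, 10.64 and 10.59 in HCC827. It fell in A549 (-0.97 ± 0.11, adjusted p = 1.88e-06) and rose in HCC827 (0.36 ± 0.11, adjusted p = 0.013), a rise that was smaller and not called without HCC827 parental replicate 1 (0.19, adjusted p = 0.0666) and called without both uneven arrays (0.19, adjusted p = 0.0125). In NCI-H358 MCM2 was 10.88, 10.93 and 10.62 against 10.50, 10.52 and 10.56, which missed the threshold (-0.29 ± 0.11, adjusted p = 0.0523), and without parental replicate 3 it was called lower (-0.38, adjusted p = 0.0178).

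MCM5 had the highest fold change of the S-phase genes in HCC827. Its levels there were 8.60, 8.92 and 9.00 on the parental and 10.13, 10.19 and 10.08 on the mesenchymal arrays, a rise of 2.45-fold (1.29 ± 0.10, adjusted p = 9.73e-09) with a wide gap between the groups. In A549 they were 10.26, 10.20 and 10.25 against 9.37, 9.37 and 9.35, a fall (-0.87 ± 0.10, adjusted p = 1.87e-06). In NCI-H358 they were 9.67, 9.65 and 9.31 against 9.31, 9.25 and 9.42, with parental replicate 3 among the mesenchymal values, and the change was not called (-0.22 ± 0.10, adjusted p = 0.106). CDT1 was lower in A549 (-0.91) and NCI-H358 (-0.54) and not called in HCC827 (0.06), and GINS2 was lower, higher and lower (-0.70, 0.63 and -0.73). MCM10 was lower in A549 (-0.39), higher in HCC827 (0.83) and not called in NCI-H358 (-0.14), and its A549 call was lost without A549 parental replicate 3 or mesenchymal replicate 3 (adjusted p up to 0.105). Among the MCM subunits HCC827 was uneven, with MCM3 at 1.20, MCM5 at 1.29 and MCM6 at 0.68, all called, and MCM4 at 0.30 and MCM7 at -0.03, not called. All of MCM2 to MCM7 were lower in A549, by 0.64 to 0.98. In NCI-H358 MCM6 (-0.58) and MCM7 (-0.49) were lower and MCM2 to MCM5 were not called, while without HCC827 parental replicate 1 and NCI-H358 parental replicate 3 all 6 were called lower.

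At the replication fork, PCNA encodes the sliding clamp, RRM2 the small subunit of ribonucleotide reductase and TYMS thymidylate synthase, which makes the nucleotide of thymine. PCNA was 12.89, 12.91 and 12.88 in parental and 12.79, 12.76 and 12.75 in mesenchymal A549, groups that did not overlap although the change was small and not called (-0.13 ± 0.10, adjusted p = 0.334). It went from 11.31, 11.87 and 11.77 to 12.43, 12.48 and 12.49 in HCC827 and from 12.62, 12.59 and 12.55 to 11.96, 11.99 and 11.86 in NCI-H358. It rose in the first (0.82 ± 0.10, adjusted p = 2.98e-06) and fell in the second (-0.65 ± 0.10, adjusted p = 4.64e-05), again without overlap. RRM2 was 12.27, 12.32 and 12.33 against 11.78, 11.75 and 11.82 in A549, 10.97, 11.43 and 11.47 against 12.02, 11.95 and 11.92 in HCC827 and 11.79, 11.82 and 11.66 against 11.14, 11.13 and 11.15 in NCI-H358. It followed the most frequent pattern, lower in A549 (-0.52 ± 0.10, adjusted p = 0.000318), higher in HCC827 (0.67 ± 0.10, adjusted p = 1.76e-05) and lower in NCI-H358 (-0.62 ± 0.10, adjusted p = 5.46e-05).

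TYMS went against its class in NCI-H358. Its levels were 11.84, 11.76 and 11.59 on the parental and 12.14, 12.13 and 12.14 on the mesenchymal arrays of that line, all mesenchymal arrays being higher (0.40 ± 0.08, adjusted p = 0.000422). In A549 they were 12.35, 12.38 and 12.45 against 12.06, 12.06 and 12.09, a fall (-0.32 ± 0.08, adjusted p = 0.00276), and in HCC827 11.26, 11.51 and 11.55 against 12.54, 12.57 and 12.45, a rise of 2.11-fold (1.08 ± 0.08, adjusted p = 3.77e-09). Without HCC827 parental replicate 1 the rise of TYMS in HCC827 was 0.99. TK1, which salvages thymidine for the same nucleotide, was lower in NCI-H358 (-0.76, adjusted p = 2.63e-06) and in A549 (-0.89) and higher in HCC827 (0.54). UHRF1, which keeps DNA methylation on newly made strands, rose in HCC827 (1.21, adjusted p = 2.74e-06), where parental replicate 1 stood at 9.79 and the other 2 at 10.54 and 10.57. Its fall in A549 (-0.39) was lost on leaving out any 1 of 10 arrays (adjusted p up to 0.109).

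**Figure D3:**
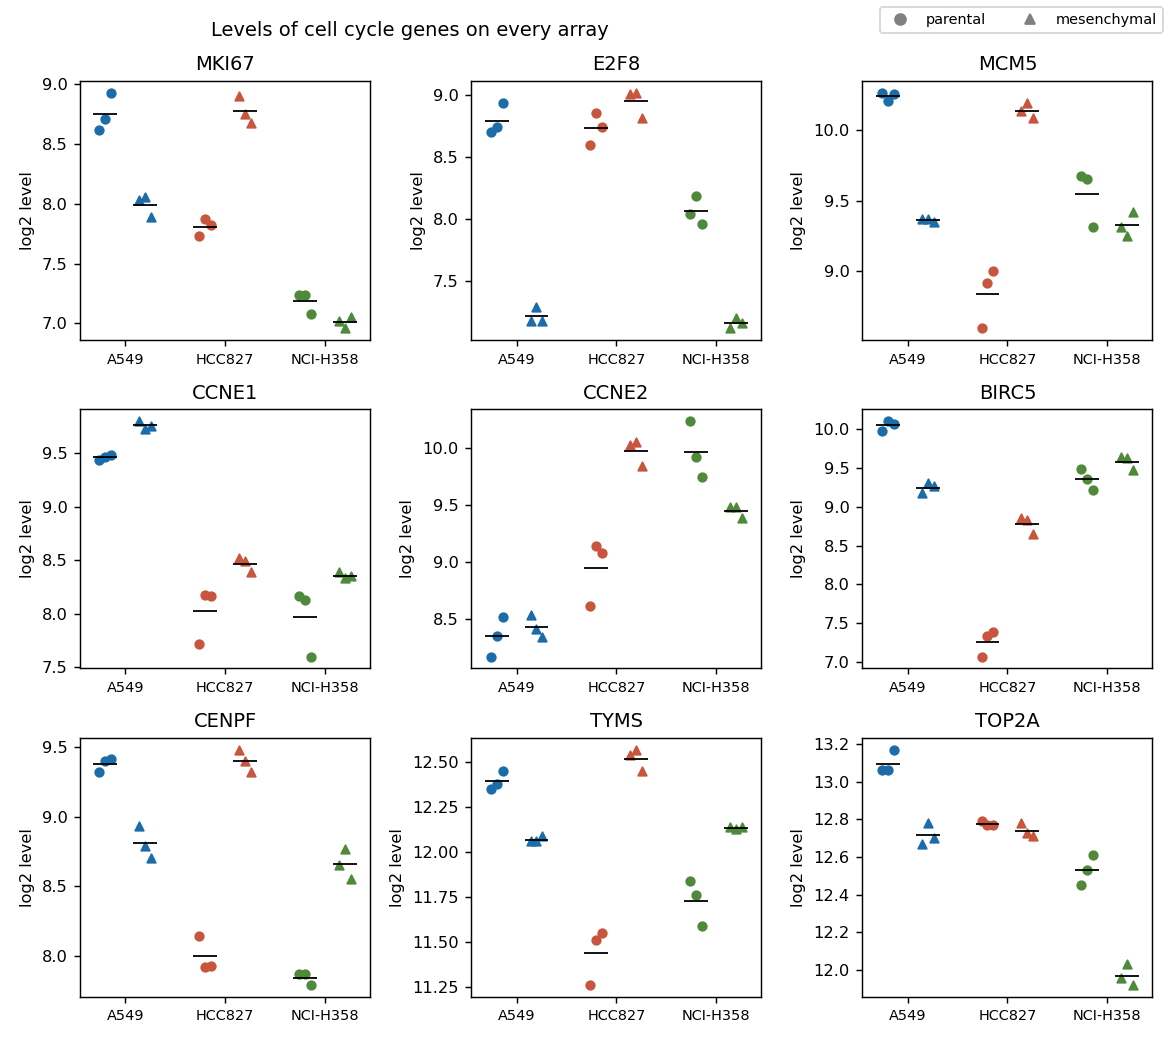
RMA log2 level of 9 of the genes on every array, by line, with parental arrays as circles, mesenchymal arrays as triangles and group means as lines. Each panel has its own vertical axis, which does not start at 0. Low single parental arrays are seen in MCM5, CCNE1, CCNE2 and, in HCC827, BIRC5 (7.07, with the other 2 at 7.33 and 7.39), and the HCC827 groups of MKI67, BIRC5 and CENPF do not overlap.

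Of the chromosome genes, MKI67 encodes the Ki-67 protein, a coat of mitotic chromosomes used in pathology to count cycling cells, and TOP2A encodes the topoisomerase that untangles sister DNA. MKI67 was 8.62, 8.71 and 8.93 in parental and 8.03, 8.06 and 7.89 in mesenchymal A549, and 7.73, 7.87 and 7.82 against 8.90, 8.75 and 8.68 in HCC827. The groups were well apart in both lines, and MKI67 fell in A549 (-0.76 ± 0.09, adjusted p = 1.46e-06) and rose in HCC827 (0.97 ± 0.09, adjusted p = 5.11e-08). In NCI-H358 it was 7.24, 7.24 and 7.08 against 7.02, 6.96 and 7.05, lower without overlap but not called (-0.18 ± 0.09, adjusted p = 0.118). TOP2A was 13.06, 13.06 and 13.17 against 12.67, 12.78 and 12.70 in A549, 12.79, 12.77 and 12.77 against 12.78, 12.73 and 12.71 in HCC827 and 12.45, 12.53 and 12.61 against 11.96, 12.03 and 11.92 in NCI-H358. It fell in A549 (-0.38 ± 0.06, adjusted p = 5.88e-05) and NCI-H358 (-0.56 ± 0.06, adjusted p = 6.98e-07), and in HCC827 the groups overlapped (-0.04 ± 0.06, adjusted p = 0.67). So MKI67 and TOP2A, both markers of proliferation, gave different calls in HCC827 and in NCI-H358.

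All 6 mitotic cyclin, CDK and activator genes fell in A549 and NCI-H358, while in HCC827 CCNA2 and CDC20 rose, CDC25C fell and 3 were not called. CCNB1 encodes cyclin B1 and CDK1 its kinase, and together they start mitosis. CCNB1 was 12.06, 12.11 and 12.22 against 11.45, 11.49 and 11.41 in A549, 12.01, 11.95 and 12.03 against 12.19, 12.11 and 12.00 in HCC827 and 11.85, 11.79 and 11.88 against 11.47, 11.48 and 11.45 in NCI-H358. CDK1 was 10.94, 10.97 and 11.00 against 10.47, 10.59 and 10.57, 10.36, 10.40 and 10.40 against 10.63, 10.50 and 10.41 and 10.65, 10.70 and 10.69 against 10.11, 10.14 and 10.06 in the same order of lines. Both fell in A549 (CCNB1 -0.68 ± 0.06, adjusted p = 1.26e-07; CDK1 -0.43 ± 0.06, adjusted p = 2.16e-05) and in NCI-H358 (CCNB1 -0.38 ± 0.06, adjusted p = 0.000104; CDK1 -0.58 ± 0.06, adjusted p = 6.27e-07). In HCC827 neither was called, at 0.10 for CCNB1, whose groups overlapped, and 0.13 for CDK1. CCNB2, a second B-type cyclin, was at 0.02 there and was lower in A549 (-0.58) and NCI-H358 (-0.61). CCNA2, which acts in S phase and G2, was lower in A549 (-1.11) and NCI-H358 (-0.50) and higher in HCC827 (0.61).

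CDC20, which activates the anaphase-promoting complex, and CDC25C complete this group. CDC20 was 11.86, 11.96 and 11.99 against 11.08, 11.11 and 11.09 in A549, 12.10, 12.26 and 12.27 against 12.61, 12.47 and 12.35 in HCC827 and 11.66, 11.67 and 11.63 against 11.10, 11.15 and 11.22 in NCI-H358. It fell in A549 (-0.84 ± 0.07, adjusted p = 3.97e-08) and NCI-H358 (-0.50 ± 0.07, adjusted p = 1.92e-05) and rose slightly in HCC827 (0.27 ± 0.07, adjusted p = 0.00504), with mesenchymal replicate 3 close to the parental arrays. CDC25C was 8.64, 8.48 and 8.60 against 7.69, 7.90 and 7.80, 9.29, 9.15 and 9.13 against 8.97, 8.97 and 8.91 and 8.54, 8.69 and 8.57 against 7.95, 7.98 and 8.05. Mesenchymal arrays were below parental ones in each line, by -0.77 ± 0.07, adjusted p = 1.16e-07, -0.24 ± 0.07, adjusted p = 0.0106 and -0.61 ± 0.07, adjusted p = 1.87e-06, and the HCC827 value was not called without parental replicate 1 (-0.19, adjusted p = 0.0509).

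The mitotic kinases and their passenger were lower in A549 without exception. AURKA acts at the spindle poles and PLK1 at several steps of mitosis, while BIRC5 encodes survivin, the subunit that places AURKB at the centromere. AURKA was 11.34, 11.33 and 11.26 against 10.54, 10.52 and 10.60 in A549, 10.87, 10.98 and 11.02 against 11.22, 11.16 and 11.08 in HCC827 and 10.82, 10.85 and 10.94 against 10.55, 10.67 and 10.69 in NCI-H358. PLK1 was 8.21, 8.05 and 8.43 against 7.22, 7.37 and 7.46, 7.22, 7.32 and 7.29 against 7.72, 7.59 and 7.65 and 7.57, 7.40 and 7.30 against 7.10, 7.10 and 7.21. Both showed the pattern of lower, higher and lower without overlap, with AURKA at -0.76 ± 0.06, adjusted p = 3.95e-08, 0.20 ± 0.06, adjusted p = 0.0183 and -0.23 ± 0.06, adjusted p = 0.00673, and PLK1 at -0.88 ± 0.09, adjusted p = 7.29e-07, 0.38 ± 0.09, adjusted p = 0.00287 and -0.29 ± 0.09, adjusted p = 0.021. The NCI-H358 call of PLK1 was lost without its parental replicate 1, mesenchymal replicate 1 or mesenchymal replicate 2 (adjusted p up to 0.114). The rise of AURKA in HCC827 was lost without mesenchymal replicate 1 (adjusted p = 0.0823) and without parental replicate 1 (0.15, adjusted p = 0.0746), and so was that of AURKB (from 0.21 to 0.16, adjusted p = 0.119), which was lower in A549 (-0.60) and NCI-H358 (-0.51).

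BIRC5 had the highest fold change of the 43 genes in HCC827 with all arrays, and without parental replicate 1 of that line it was second to CENPF (1.41 against 1.48). It went from 7.07, 7.33 and 7.39 to 8.85, 8.83 and 8.65 in HCC827, 2.84-fold (1.51 ± 0.09, adjusted p = 4.41e-10). In A549 it went from 9.98, 10.10 and 10.06 to 9.17, 9.30 and 9.27, a fall (-0.80 ± 0.09, adjusted p = 1.91e-06), and in NCI-H358 from 9.49, 9.36 and 9.21 to 9.64, 9.63 and 9.47. The groups did not overlap in A549 and HCC827, while in NCI-H358 the lowest mesenchymal array lay just below the highest parental one (0.23 ± 0.09, adjusted p = 0.0601).

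CENPF, a large protein of the outer kinetochore, rose in NCI-H358 where 4 of 5 genes of its group fell. Its levels were 7.87, 7.87 and 7.79 against 8.65, 8.77 and 8.55 in NCI-H358, 8.14, 7.92 and 7.93 against 9.48, 9.40 and 9.32 in HCC827 and 9.32, 9.40 and 9.41 against 8.93, 8.79 and 8.70 in A549. All 3 lines were without overlap, CENPF being higher in NCI-H358 (0.81 ± 0.08, adjusted p = 2.68e-07) and HCC827 (1.41 ± 0.08, adjusted p = 1.81e-10) and lower in A549 (-0.57 ± 0.08, adjusted p = 1.75e-05). BUB1, a kinase of the spindle checkpoint, had the lowest change of the mitotic genes in A549, and in NCI-H358 it was at about the same value as CCNB2, CDC25C and KIF20A (-0.61 each). It read 6.19, 6.26 and 6.26 against 4.63, 5.18 and 5.26 in A549, 5.98, 6.41 and 5.98 against 5.99, 5.92 and 6.19 in HCC827 and 5.59, 6.10 and 6.15 against 5.50, 5.24 and 5.25 in NCI-H358. BUB1 fell in A549 (-1.21 ± 0.17, adjusted p = 1.38e-05) and NCI-H358 (-0.62 ± 0.17, adjusted p = 0.00618) and overlapped in HCC827, with a standard error of 0.17 in each line. Its mesenchymal means of 5.02 in A549 and 5.33 in NCI-H358 were within the range of the leukocyte marker medians, 4.95 to 5.49. Leaving out 1 array, its change reached -0.52 in NCI-H358 and -1.02 in A549, where CCNA2 was then lower. BUB1B, CENPA, CENPE, KIF11 and KIF23, of the checkpoint, the centromere and the spindle motors, were each lower in A549 (-0.86 to -0.50), higher in HCC827 (0.38 to 0.78) and lower in NCI-H358 (-0.45 to -0.22), and the kinesin KIF20A was lower in A549 (-0.84) and NCI-H358 (-0.61).

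Both factors that drive the late wave fell in A549, FOXM1 rose in HCC827, and neither was called in NCI-H358. FOXM1 was 10.06, 10.10 and 10.05 against 9.51, 9.34 and 9.44 in A549, 9.56, 9.76 and 9.80 against 10.21, 10.16 and 10.07 in HCC827 and 9.44, 9.31 and 9.08 against 9.10, 9.17 and 9.19 in NCI-H358. It fell in A549 (-0.64 ± 0.09, adjusted p = 9.96e-06) and rose in HCC827 (0.44 ± 0.09, adjusted p = 0.000372), and it overlapped in NCI-H358. MYBL2 was 9.37, 9.51 and 9.39 against 8.70, 8.61 and 8.70 in A549, 8.41, 9.03 and 8.97 against 9.14, 9.14 and 9.02 in HCC827 and 8.65, 8.72 and 8.37 against 8.27, 8.22 and 8.31 in NCI-H358. It fell in A549 (-0.75 ± 0.13, adjusted p = 0.000117) and was not called in HCC827, where the value was 0.29 with all arrays and 0.09 without parental replicate 1, or in NCI-H358 (-0.31 ± 0.13, adjusted p = 0.0586). Without NCI-H358 parental replicate 3, both factors were called lower in NCI-H358, FOXM1 at -0.22 (adjusted p = 0.0435) and MYBL2 at -0.42 (adjusted p = 0.0205).

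The difference of the change between lines was tested in the same fit, and the comparisons share groups. The change in HCC827 was higher than that in A549 for 42 of 43 genes, against 22.7% of all genes, with a median difference of 1.19 and CCNE1 as the exception (0.14, adjusted p = 0.611). The largest was BIRC5 (2.31 ± 0.13, adjusted p = 3.4e-10). The change in NCI-H358 was lower than that in HCC827 for 40 genes, against 16.8%, with a median difference of -1.09 for the S-phase genes and -0.68 for the mitotic genes. NCI-H358 against A549 gave 23 genes whose change was higher, against 25.7% of all genes, the largest being CENPF (1.38 ± 0.11, adjusted p = 3.83e-08). For 2 genes, CCNE2 and PCNA, it was lower, against 17.1%. The fall of TOP2A was not shown to differ between these 2 lines (NCI-H358 minus A549 -0.18 ± 0.09, adjusted p = 0.106). Without both uneven parental arrays, HCC827 minus A549 gave 42 genes higher, with a median difference of 1.07. In that setting NCI-H358 minus HCC827 gave 40 lower, with medians of -0.92 (S-phase) and -0.69 (mitotic). NCI-H358 minus A549 then gave 27 higher and 2 lower.

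The parental lines also differed in the level of these genes. Parental HCC827 was lower than parental A549 in 35 of 43 genes (18 S-phase, 17 mitotic), against 29.8% of all genes, the largest gaps being BIRC5 (-2.78) and MCM10 (-2.61). It was higher in 4 genes, CCNE2, CDC20, CDC25C and KIF20A, against 27.2%. Parental NCI-H358 was lower than parental A549 in 30 genes, against 29.4%, with MKI67 at -1.57 and CENPF at -1.53, and against parental HCC827 it was higher in 15 S-phase and 8 mitotic genes, against 27.1%, and lower in 1 and 6, against 25.5%, with medians of 0.51 and -0.11. Without HCC827 parental replicate 1 and NCI-H358 parental replicate 3, these parental counts were 34 and 30 genes lower than A549, and for NCI-H358 against HCC827 15 and 8 higher and 2 and 8 lower. On the other side of EMT, mesenchymal HCC827 was higher than mesenchymal A549 in 13 S-phase and 16 mitotic genes, against 28.3%, with E2F8 at 1.74. Mesenchymal NCI-H358 was higher than mesenchymal A549 in 12 genes, against 31.4%, and lower in 16, against 27.4%. It was lower than mesenchymal HCC827 in 34 genes, against 24.4%, with E2F8 at -1.79 and MKI67 at -1.77. For the S-phase class mean, the order was A549 (9.84), NCI-H358 (9.50) and HCC827 (8.95) in parental cells, and HCC827 (9.55), A549 (9.18) and NCI-H358 (9.17) in mesenchymal cells. Without the 2 uneven arrays the parental means were 9.58 for NCI-H358 and 9.09 for HCC827, in the same order. The last pair, mesenchymal NCI-H358 minus A549, differed by -0.02 in the mean over the genes, beside array SDs of 0.02 and 0.01, and was not tested.

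S-phase genes deviated together on single arrays of a group, and 2 arrays carried that. Over the deviations of 18 arrays from their group means, the median Pearson correlation was 0.70 for 210 pairs of S-phase genes, 0.22 for 231 mitotic pairs and 0.16 for pairs across the classes, against 0.01 for pairs of all genes. Without HCC827 parental replicate 1 and NCI-H358 parental replicate 3 it was 0.01 for S-phase pairs, 0.27 for mitotic pairs and 0.06 across the classes. These are descriptions, since the genes share arrays, normalization and group means.

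Other replication and mitosis genes, listed by textbook role, had medians of the same sign as the 43 in each line. Of all 19849 genes, 26.8% were lower and 16.6% higher in A549, with 25% lower and 20.8% higher for HCC827 and 19.8% lower and 21.5% higher for NCI-H358. In A549, 48 of 53 other replication genes and 79 of 84 other mitosis genes were lower, with medians of -0.66 and -0.62. In HCC827, 29 of 53 and 50 of 84 were higher and 8 of each list were lower, with medians of 0.29 and 0.28. In NCI-H358, 20 of 53 were lower and 5 higher, with a median of -0.20, and 57 of 84 were lower and 4 higher, with a median of -0.37. CHR letters were in 73.8% of 65 of the mitosis genes and 8.7% of 46 of the replication genes with a promoter entry, and E2F letters in 36.9% and 69.6%. Of 3 replication genes called in the same direction in all lines, DNA2, a nuclease and helicase of the fork, fell by 0.64, 0.34 and 0.80 in A549, HCC827 and NCI-H358, and RFC2, of the clamp loader, fell by 0.72, 0.62 and 0.31. Of 7 such mitosis genes, 6 were lower, with PSRC1, a microtubule-binding protein, at -1.28, -0.56 and -1.26 and ECT2, the exchange factor of cytokinesis, at -1.12, -0.31 and -1.19. The checkpoint gene BUB3 was the 1 that was higher in all, at 0.16, 0.53 and 0.21.

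The regulators above these genes were called in both directions in each line, and the same shares of all genes apply to the counts of these lists. Of 18 E2F, RB and DREAM genes, 5 rose and 10 fell in A549, 9 rose and 6 fell in HCC827, and 8 rose and 1 fell in NCI-H358. E2F7, an atypical repressor like E2F8, rose in all 3 lines, by 0.52, 1.58 and 1.65, so the pair moved in opposite directions in A549 and NCI-H358. FZR1, an activator of the anaphase-promoting complex in G1, rose by 0.39, 0.92 and 1.05. Of 7 genes for histone supply in S phase, 4 fell in A549, 4 rose in HCC827 and 2 fell in NCI-H358. Of 14 CDK inhibitors, D cyclins and related genes, 3, 9 and 5 rose and 4, 2 and 5 fell in A549, HCC827 and NCI-H358, in A549 shares near those of all genes. CDKN1A, which encodes the CDK inhibitor p21, rose by 1.94 in A549 and 1.72 in HCC827, where the members moved in opposite directions, and fell by 0.36 in NCI-H358. CDKN2B, a CDK4 and CDK6 inhibitor known as a TGFβ target, rose by 1.17 in NCI-H358 and 0.48 in HCC827, and in A549 it had parental and mesenchymal means of 2.83 and 2.89, near the lowest value of the table, 2.05. CCND1, encoding cyclin D1, rose by 1.07 in A549 and 1.53 in HCC827, and MYC rose by 1.34 in NCI-H358. Of 12 housekeeping genes 0, 4 and 4 rose and 3, 2 and 3 fell, with medians of -0.05, 0.05 and 0.10. Their changes ranged from -0.34 to 0.16 in A549, from -0.23 to 0.61 in HCC827 and from -0.99 to 0.41 in NCI-H358. The lowest of the 12 stood at the 0.385 to 1.31 percentile of all genes across the groups.

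**Figure D4:**
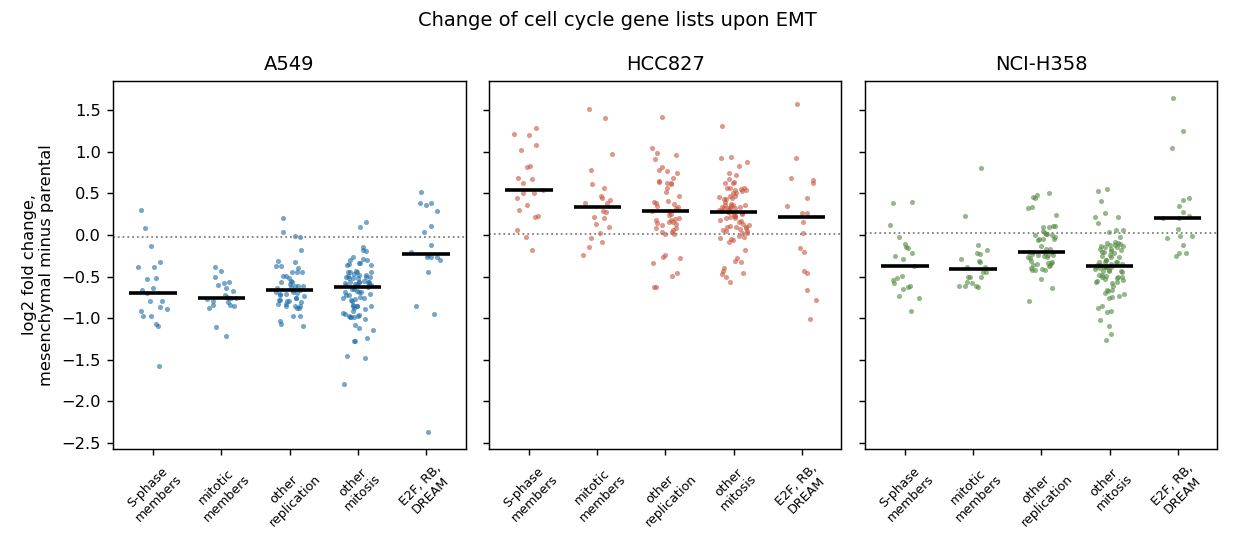
Log2 fold change, mesenchymal minus parental, of the 21 S-phase and 22 mitotic genes, 53 other replication genes, 84 other mitosis genes and 18 E2F, RB and DREAM genes in each line. Each point is a gene, horizontal lines are medians, and the dotted line is the median of all 19849 genes. Medians of the first 4 lists lie below the dotted line in A549 and NCI-H358 and above it in HCC827.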

How the data were processed

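Total RNA of 3 lung cancer lines, parental or mesenchymal, was hybridized to Affymetrix U133 Plus 2.0 arrays, 3 per group. RMA normalization was done by the authors, whose deposited table gives each of 19849 genes as the log2 level of 1 probe set. How that probe set was chosen is not given in the sources used here. Of the columns of values, 0 belonged to no sample. RMA sets all arrays to one distribution, so a change shared by all genes cannot be seen.

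Group means were fitted with limma 3.58.1 in R 4.3.3 (lmFit, contrasts.fit, eBayes) to all 18 arrays and 6 groups, with no covariate, and p-values were adjusted by Benjamini-Hochberg over all 19849 genes of each contrast. A gene was called with an adjusted p below 0.05. The fit was tested on simulated data. Summaries used Python 3.11.15 with pandas 2.3.3 and numpy 2.4.6. Arrays have no sequencing depth, and 3 per group limit the precision.

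The 43 genes, their classes and all other gene lists were chosen with earlier results of these data known. Values on every array were given for 20 well known members and for the members with the highest and lowest change of each class and line. From each other list, genes were named by the 2 lowest and 2 highest mean changes among those called in the same direction in all 3 lines, and CDKN1A, CDKN2B, CCND1, MYC, CDH1 and VIM were named by choice. TK1, UHRF1 and the other members were added to account for all 43. The alternatives tried were other limma settings, a filter on dim genes, centring on housekeeping genes, other thresholds, a per-gene Student's t-test (named in the methods for data without another stated test, while limma is named for the arrays), and leaving out arrays. Promoter windows came from RefSeq (GRCh38.p14).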

Additional observations from a re-analysis of the deposited data

Results flagged for a closer look

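Differences of the EMT change between lines passed the test (limma, Benjamini-Hochberg adjusted p below 0.05) for most of the 43 genes. The change was higher in HCC827 than in A549 for 42 genes, with BIRC5 the largest at 2.31 on the log2 scale. For NCI-H358 against A549 it was higher for 23 genes, with CENPF the largest at 1.38, and lower for 2, CCNE2 and PCNA. It was lower in NCI-H358 than in HCC827 for 40 genes, with CCNE2 at -1.54. The 3 comparisons share groups of arrays.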

How the results depend on the processing

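The direction of each class median was kept in all 3 lines under every alternative run. Fewer genes were called above 2-fold (5 lower in A549, 7 higher and 0 lower in HCC827, 0 lower and 0 higher in NCI-H358), and at the study thresholds 0 were called in any line by limma. With an adjusted p below 0.01, 0 members were lower in HCC827, where 2 were lower at an unadjusted limma p under 0.05 and 1 by Student's t-test. In A549, 1 member, CCNE1, was higher under a separate fit per line, an intensity trend, array weights, housekeeping centring, Student's t-test, and on leaving out both uneven parental arrays, an alternative chosen after seeing the data, as were the role medians and parental line counts without them. In HCC827, 2 members were lower with an intensity trend, the dim filter or housekeeping centring, 2 without HCC827 mesenchymal replicate 1, and 0 without HCC827 parental replicate 1 or without both uneven arrays. Housekeeping centring moved the A549 medians to -0.65 (S-phase) and -0.71 (mitotic), the HCC827 mitotic median to 0.24 and the NCI-H358 mitotic median to -0.37. Means in place of medians gave -0.66 for the A549 S-phase genes and -0.34 for the NCI-H358 mitotic genes, whose median was -0.44 without genes at the class boundary.

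Leaving out 1 array at a time gave 38 to 40 lower and 0 to 1 higher members in A549, 25 to 31 higher and 0 to 2 lower in HCC827, and 26 to 32 lower and 2 to 4 higher in NCI-H358. S-phase medians ranged from -0.72 to -0.68, from 0.44 to 0.62 and from -0.50 to -0.29, and mitotic medians from -0.77 to -0.74, from 0.27 to 0.38 and from -0.43 to -0.40. The differences between lines gave 42 to 42, 20 to 27 and 38 to 41 members. Student's t-test, after Benjamini-Hochberg adjustment, gave 40 lower in A549, 22 higher in HCC827 and 23 lower in NCI-H358, and at an unadjusted threshold 41, 27 and 30. Of 450 results for single named genes under 6 alternatives, 406 kept their direction and their side of the threshold, 27 passed it and 17 no longer did, and none reversed. The cause was not tested. No paired analysis was possible because the labels give the arrays no replicate numbers shared between groups. The level of a probe set near the bottom of the scale, such as CDKN2B in A549, limits what a change can show.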
